A study of Mus musculus with 6 samples.

Results

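Fat cells store triglyceride in droplets that bud from the endoplasmic reticulum and carry a coat of proteins that decides how they grow and how fast they are broken down. Perilipins coat the droplet and control the access of lipases, CIDE proteins sit where droplets touch and drive the transfer of lipid from the smaller to the larger one, and membrane proteins such as seipin and FIT2 act where droplets form. White fat cells hold a single large droplet, while brown and beige fat cells hold many small ones beside their mitochondria. The 10 genes described here, of 18193 genes named on the array, are the CIDE genes Cidea, Cideb and Cidec, the perilipin genes Plin2, Plin3, Plin4 and Plin5, the genes of droplet formation Fitm2 and Bscl2, and Hilpda, which encodes a droplet protein that restrains lipolysis. They were chosen by their symbols as a family of droplet proteins, with earlier results of these data known, so counts among them are descriptive. Every probe set that the platform annotation gives to a member was used. That made 12 probe sets, since Plin5 and Bscl2 had 2 each and the other 8 genes had 1. Plin1, the perilipin of large droplets, was not analysed here.

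The cells were differentiated mouse inguinal fat cells, a culture from the white fat depot of the groin. The 3 Control samples were labelled as non-activated, and their own treatment label named no drug. The 3 other samples were labelled as beiging, with 1 uM rosiglitazone for 4 days. The treatment protocol text, however, names rosiglitazone for all 6 samples, so the groups rest on the sample titles. Rosiglitazone is a thiazolidinedione that activates the nuclear receptor PPARγ. The labels give no strain, genotype, sex or age for these cells, and nothing in them tells whether the 3 samples within each treatment were separate cultures. The p-values therefore describe the spread among these 6 samples, and that spread may be technical. RNA was read on Affymetrix mouse 430 2.0 arrays, and a value is the intensity of a probe set, a group of short probes to one transcript. Array medians lay between 44.46 and 46.66 and the highest values between 16947 and 17925. Rank correlations between arrays ran from 0.975 to 0.980 within a group and from 0.966 to 0.969 between groups.

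The comparison asked how the family differed between cells with and without the drug, and its members did not move as a block. Cidea rose 87.7-fold and Plin5 4.32-fold, Fitm2 rose 1.53-fold, Cidec rose 1.21-fold and Plin2 1.20-fold, Plin4 fell by 0.17 on the log2 scale, and Bscl2 and Hilpda did not pass the test by their brightest probe set. A probe set was called at an adjusted p under 0.05 from limma over all 27022 probe sets tested, and a gene by its brightest probe set. By that rule 8 of 10 members were called, where 58.3% of the 12952 genes tested were, each by its brightest probe set, and 51.9% of all probe sets. Higher with rosiglitazone were 7 of 10 members, where 23% of the genes and 21.2% of all probe sets were. Among the 7 was Cideb, which was tested only because of its treated arrays and was called in 12 of 18 alternatives. Lower was 1 member, where 35.3% of the genes and 30.7% of all probe sets were. The excess of lower over higher calls in these backgrounds turned with the scaling. After median centring 8 members were higher and 0 lower, where 34.5% of the genes were higher and 24.9% lower (59.5% called), and 32.2% and 21.1% of all probe sets (53.3% called). After quantile normalization 7 members were higher and 2 lower, where 29.9% of the genes were higher and 28.7% lower (58.6% called), and 27.4% and 24.9% of all probe sets (52.3% called). The median log2 change of the 10 members, each by its brightest probe set, was 0.27, against -0.04 over all probe sets tested. These medians were 0.39 and 0.08 after median centring, and 0.21 and 0.03 after quantile normalization. Counted by probe set, 8 of 12 were higher, 2 lower and 2 not called. The 3 arrays of one group lay apart from the 3 of the other for 10 of 12 member probe sets, against 58.3% of all probe sets. A called change of at least 2-fold was found in 3 of 12 member probe sets, those of Cidea and Plin5, and in 5.31% of all probe sets.

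**Figure D1:**
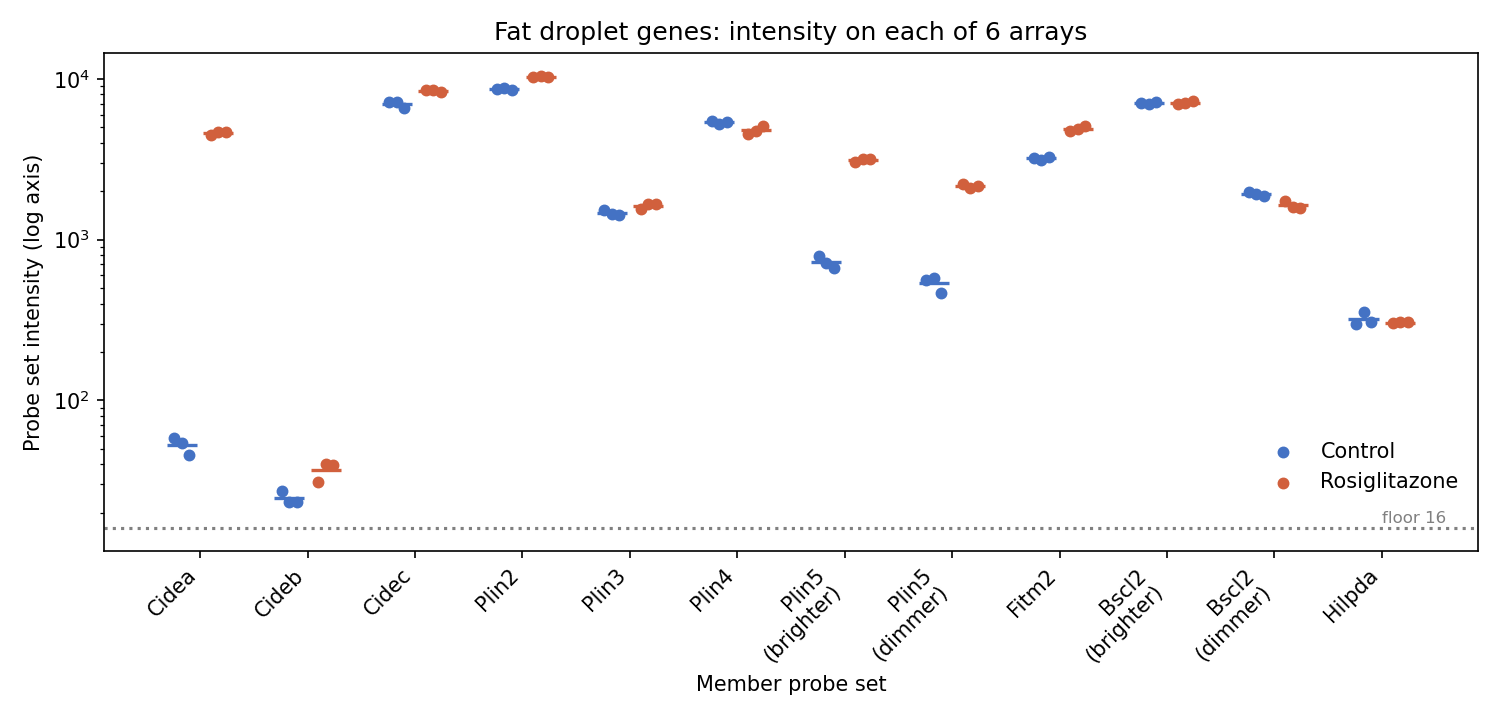
Intensity of the 12 member probe sets (log axis) on each of the 3 Control and 3 Rosiglitazone arrays, as points, with the group mean as a bar; the dotted line is the floor of 16 below which values were set to 16. Cidea and both probe sets of Plin5 stand far apart between the groups, and the groups overlap for Hilpda and the brighter Bscl2 probe set.

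Cidea encodes the CIDE protein that is abundant in brown and beige fat. Its intensity was 58.50, 53.97 and 45.91 on the Control arrays and 4449, 4698 and 4685 on the Rosiglitazone arrays. The lowest treated array was 76.1 times the highest Control array, so the gap between groups far exceeded the spread within them. The log2 change was 6.46 (SE 0.07, 95% interval 6.30 to 6.61, adjusted p = 2.01e-17 by limma), from a mean of 52.8 ± 6.38 to 4611 ± 139.9 (SD, n = 3 each). Only 1 of the 27022 probe sets had a higher change. Over 19 alternative settings the change lay between 6.17 and 6.58 and passed in all of them. Its adjusted p by limma depended on the setting and ran from 1.74e-20 to 3.63e-05. The RNA came from whole cultures, in which a larger share of cells that use a gene and more of its RNA per cell cannot be told apart.

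Among 12223 other named genes, the profile over the 6 arrays that lay nearest to that of Cidea was that of Ucp1, which encodes the uncoupling protein of heat-producing fat. Their distance, on log2 values centred on the Control mean, was 0.30, and the next genes, Sgk2 and Fabp3, lay at 3.10 and 3.40. The log2 changes were 6.55 for Ucp1, 4.68 for Sgk2 and 4.50 for Fabp3. Ucp1 was under the floor on all 3 Control arrays, at 6.95, 4.42 and 4.76, and reached 1485, 1514 and 1485 with the drug, so that its nearness to Cidea depends on the floor. The Control means of Ucp1 (5.38) and Sgk2 (21.9) were under the filter on low values, 27.3, so both were tested because of their treated arrays.

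Cidec, also known as Fsp27, encodes the CIDE protein of white fat that enlarges the single droplet. It was bright on every array, at 7141, 7137 and 6625 in Control and 8575, 8521 and 8269 with rosiglitazone. All treated arrays exceeded all Control arrays, by a small margin. The log2 change of 0.28 (SE 0.03, 95% interval 0.21 to 0.35, adjusted p = 1.31e-06 by limma) corresponds to 1.21-fold. It lay between 0.20 and 0.40 over the 19 alternatives and was called in each. The change of Cidea exceeded that of Cidec by 6.18 on the log2 scale when both were read on the same array, without overlap between the groups. An exact permutation test of 3 against 3 arrays gave two-sided p = 0.1, the smallest it can give, for this and for the other 4 pairs of members compared below (adjusted p = 0.1 over the 5 pairs).

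Cideb encodes the CIDE protein best known from liver, where it acts in the lipid loading of lipoproteins. It was dim in these cells, at 27.13, 23.32 and 23.28 in Control and 30.90, 39.89 and 39.40 with rosiglitazone. The groups did not overlap, but the treated array nearest to Control lay only 1.14 times above the highest Control array. The log2 change was 0.57 with the widest interval of the family, 0.12 to 1.02 (SE 0.21, adjusted p = 0.0329 by limma). Its Control mean of 24.6 was under the filter on low values, a mean of 27.3 over all arrays, so it was tested because of its treated arrays, while the other 11 member probe sets passed in both groups. Leaving out Control replicate 2 or 3, or Rosiglitazone replicate 2 or 3, ended the call (log2 change 0.54, 0.54, 0.51 and 0.52), as did a replicate block in the fit (adjusted p = 0.0508). Over 18 alternatives its adjusted p by limma ran from 0.0105 to 0.12. The gene also overlaps its neighbours Nop9 and Ltb4r2 in the RefSeq gene table, and its probe set carries the suffix that Affymetrix gave to sets that can read several transcripts. Nop9 changed by -0.09 on the log2 scale and was not called (adjusted p = 0.163 by limma). Ltb4r2 had no test result here.

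Plin5 encodes the perilipin of tissues that burn fat, which brings droplets and mitochondria together. Its brighter probe set read 792.3, 714.3 and 667.1 in Control and 3026, 3169 and 3182 with rosiglitazone. The dimmer set read 564.1, 579.2 and 463.0 in Control and 2230, 2082 and 2142 with the drug. Only the brighter set carries the same suffix as the Cideb set. Both sets showed the same picture, with treated arrays at least 3.59 times the highest Control array. The log2 change was 2.11 (SE 0.05, 95% interval 2.00 to 2.22, adjusted p = 5.88e-14) by the brighter set and 2.01 (SE 0.07, adjusted p = 1.27e-12) by the dimmer one, both by limma. Across the settings the adjusted p of the brighter set by limma ran from 2.58e-16 to 0.000129. The sets differed in their change by 0.10, with exact permutation p = 0.4 (n = 3 each), in a comparison added after the values were seen. They ranked 31 and 38 from the top among the 27022 changes. The named genes nearest in profile to Plin5 were Tspan18, Mreg and Pde4dip, at distances of 0.25, 0.26 and 0.30 over the 6 arrays, with log2 changes of 2.00, 2.04 and 1.99.

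Plin4 lies next to Plin5 on chromosome 17, as its immediate neighbour in the RefSeq gene table. On its other side Plin4 overlaps Hdgfl2, which was not called (log2 change 0.19, adjusted p = 0.185 by limma). Plin4 encodes a perilipin with a long repeat region that coats newly formed droplets in white fat cells. Plin4 read 5495, 5273 and 5413 in Control and 4545, 4751 and 5084 with rosiglitazone. Every treated array was lower than every Control array, with a gap of 1.04-fold between the nearest ones. The log2 change was -0.17 (SE 0.04, 95% interval -0.25 to -0.09, adjusted p = 0.00086 by limma), the only call toward lower values among the members' brightest probe sets. It was -0.23 and called after quantile normalization, and -0.05 and not called (adjusted p = 0.341) after each array was centred on its median. It was also lost without a filter on low values (adjusted p = 0.0621), and its adjusted p over the 19 alternatives ran from 1.62e-05 to 0.341. The change of Plin5 exceeded that of its neighbour by 2.28 on the log2 scale within arrays. The lowest treated array stood at -0.68 for Plin5 minus Plin4 and the highest Control array at -2.79.

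The change of Plin5 far exceeded that of Plin4, whose small fall was not called after median centring or without a filter on low values. For that difference the stretches before the start sites of this pair are shown, with that of Plin2. Those of Plin4 and Plin2 were added after the values were seen. All stretches come from RefSeq on mouse build GRCm38.p6, 250 bases upstream of the start site, 5′ to 3′ on the gene's strand. Capitals mark AGGTCA on either strand, the core that nuclear receptors such as PPARγ with RXR recognise, and DR1 elements, a pair of AGGTCA copies in the same orientation with 1 base between them, with up to 2 mismatches allowed.
Plin5, chr17:56117549-56117798, minus strand: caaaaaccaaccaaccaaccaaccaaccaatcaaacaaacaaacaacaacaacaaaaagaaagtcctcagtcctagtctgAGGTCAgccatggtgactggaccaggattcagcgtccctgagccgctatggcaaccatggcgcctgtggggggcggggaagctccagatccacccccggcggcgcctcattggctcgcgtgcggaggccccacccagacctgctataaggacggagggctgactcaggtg
Plin5, second start site, chr17:56117299-56117548, minus strand: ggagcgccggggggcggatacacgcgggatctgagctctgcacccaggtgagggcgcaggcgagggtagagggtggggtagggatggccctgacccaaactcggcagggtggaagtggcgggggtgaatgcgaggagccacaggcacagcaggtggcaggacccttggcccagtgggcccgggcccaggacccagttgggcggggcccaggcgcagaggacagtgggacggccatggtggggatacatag
Plin4, chr17:56109783-56110032, minus strand: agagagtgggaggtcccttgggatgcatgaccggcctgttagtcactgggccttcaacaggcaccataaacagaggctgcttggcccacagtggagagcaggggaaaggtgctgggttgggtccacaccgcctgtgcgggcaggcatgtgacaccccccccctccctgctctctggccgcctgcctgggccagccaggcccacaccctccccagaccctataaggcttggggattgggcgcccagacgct
Plin2, chr4:86670060-86670309, minus strand: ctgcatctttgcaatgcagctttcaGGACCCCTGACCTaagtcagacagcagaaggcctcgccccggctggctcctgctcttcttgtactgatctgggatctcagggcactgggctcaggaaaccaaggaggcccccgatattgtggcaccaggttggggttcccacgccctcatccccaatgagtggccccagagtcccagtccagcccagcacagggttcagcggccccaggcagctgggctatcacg
The outer Plin5 window held AGGTCA, with its first base 170 bases before the start site, and no DR1 match. The inner Plin5 window and the Plin4 window held neither motif. The Plin2 window held a DR1 match with 2 mismatches, whose first base lay 225 bases before the start site, and the AGGTCA match at 218 bases is its perfect copy on the opposite strand. AGGTCA was found in 3 of 14 windows of the 9 members searched, in Plin2, Plin5 and Bscl2. Cidea, with the largest change of the family, was not among these 9. Over all 32851 windows of that length, AGGTCA was found in 14%. The DR1 element was found in 1 of the 14 and in 3.24% of all. ACGTG or GCGTG, also searched on both strands but not marked above, was found in 7 of the 14 and in 38.6% of all. These are matches of letters, and binding was not measured here. Whether the matches bear on the difference in change between Plin5 and Plin4 was not tested.

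Plin2 encodes the perilipin found on droplets of nearly all cells. It read 8611, 8737 and 8574 in Control and 10228, 10480 and 10318 with rosiglitazone. The arrays of a group lay close together, with a coefficient of variation of 0.988% in Control, the lowest of the 12 probe sets. The groups were clearly apart at 1.20-fold, a log2 change of 0.26 (SE 0.02, 95% interval 0.21 to 0.31, adjusted p = 1.08e-07 by limma). The call held in all 19 alternatives, at 0.20 to 0.38. Plin5 exceeded Plin2 in its change by 1.85 on the log2 scale within arrays.

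Plin3, also known as TIP47, encodes a perilipin that moves from the cytosol to small new droplets. It read 1531, 1435 and 1419 in Control and 1543, 1665 and 1673 with rosiglitazone. The lowest treated array and the highest Control array were nearly level, 1.01-fold apart. The log2 change of 0.15 (SE 0.04, 95% interval 0.06 to 0.25, adjusted p = 0.00631 by limma) was not called with a floor of 64, without a filter on low values or without a variance trend (adjusted p = 0.0574, 0.0856 and 0.0654). Over all 19 alternatives its adjusted p ran from 9.79e-05 to 0.0856. Plin2 exceeded Plin3 in its change by 0.10 as deposited and by -0.02 after quantile normalization, so the order of these small changes depended on the scaling.

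Fitm2 encodes FIT2, an enzyme of the endoplasmic reticulum membrane that is needed for droplets to bud into the cytosol. It read 3231, 3137 and 3269 in Control and 4720, 4902 and 5094 with rosiglitazone. All treated arrays were at least 1.44 times the highest Control array. The log2 change was 0.61 (SE 0.03, 95% interval 0.54 to 0.68, adjusted p = 2.76e-10 by limma), which 4.84% of the probe sets tested exceeded. It lay between 0.58 and 0.73 over the 19 alternatives and was called in each. Its order relative to Cideb was not settled, since Cideb had the higher change in 3 of 18 alternatives (0.64 against 0.62 with array weights, 0.65 against 0.61 without Control replicate 1 and 0.69 against 0.64 without Rosiglitazone replicate 1).

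Bscl2 overlaps its neighbour Gng3 in the RefSeq gene table, and Gng3 had no test result here. Bscl2 encodes seipin, which marks and shapes the sites where droplets grow from the endoplasmic reticulum. Its brighter probe set read 7052, 6972 and 7207 in Control and 6987, 7053 and 7237 with rosiglitazone. These values overlapped fully, and the log2 change was 0.00 (SE 0.03, 95% interval -0.05 to 0.06, adjusted p = 0.933 by limma). The dimmer set read 1980, 1914 and 1866 in Control and 1734, 1590 and 1570 with the drug. Here every treated array was lower, and the log2 change was -0.24 (SE 0.04, adjusted p = 0.000184 by limma). The brighter set exceeded the dimmer one in its change by 0.24 (exact permutation p = 0.1, n = 3 each, a comparison added after the values were seen). The brighter set was 0.13 and called after median centring, but -0.09 and called after quantile normalization, so the data give no settled direction for it. The dimmer set stayed lower and called under both, at -0.11 and -0.17. The change of Fitm2 exceeded that of the brighter Bscl2 set by 0.61 on the log2 scale within arrays.

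**Figure D2:**
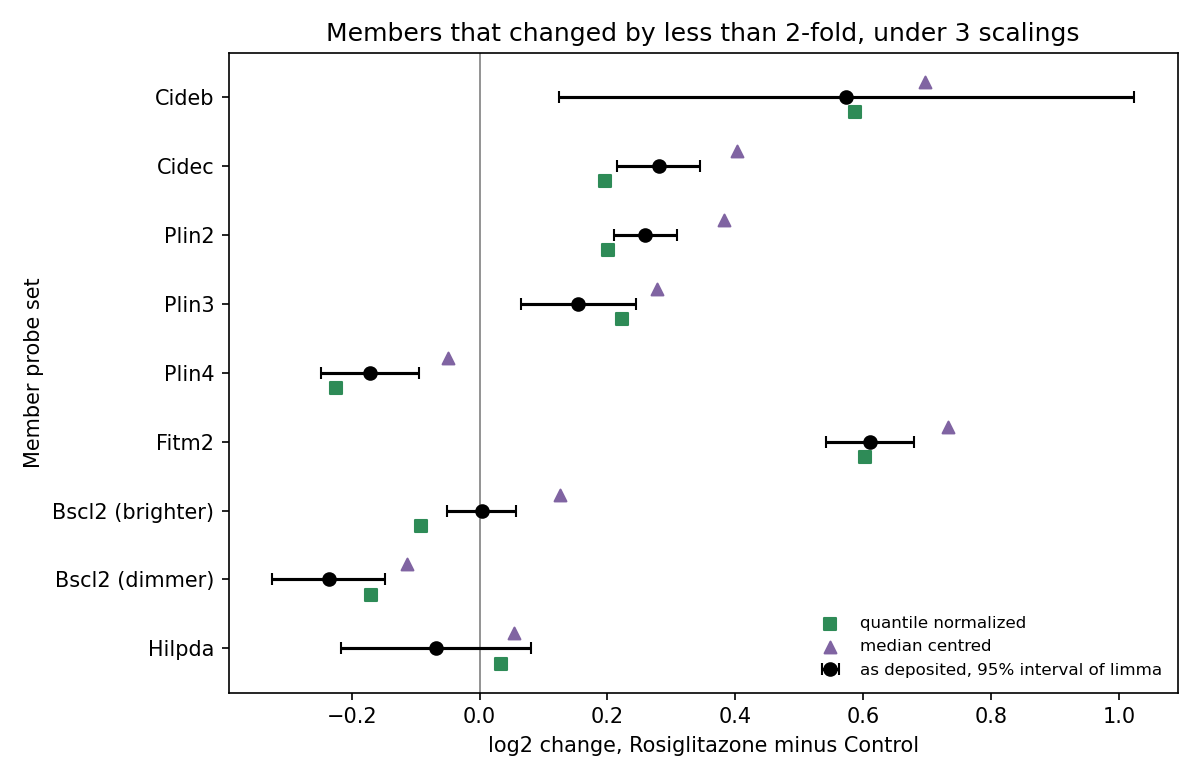
Change of the 9 member probe sets that moved by less than 2-fold, as log2 of Rosiglitazone minus Control, with the 95% interval of limma (black) and the change after quantile normalization (squares) or median centring (triangles). Cideb, Cidec, Plin2, Plin3 and Fitm2 are above 0 under all 3 scalings, while the brighter Bscl2 set and Hilpda take both signs.

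Hilpda encodes a small droplet protein that inhibits the lipase ATGL and is known to be induced by hypoxia and by fatty acids. It read 296.8, 356.2 and 307.2 in Control and 300.8, 306.3 and 306.0 with rosiglitazone. The groups overlapped, with Control replicate 2 the highest of the 6 arrays and the treated arrays within a coefficient of variation of 1.03%. The log2 change was -0.07 (SE 0.07, 95% interval -0.22 to 0.08, adjusted p = 0.447 by limma), and it was called in 0 of 19 alternatives. Without Control replicate 2 it was 0.01. Other genes known to be induced by hypoxia-inducible factors went both ways. As deposited, 5 of 14 were higher and 5 lower, with a median log2 change of 0.01. After median centring 7 were higher and 4 lower, with a median of 0.13. The shares over all genes tested were 23% higher and 35.3% lower as deposited, and 34.5% and 24.9% after median centring. Egln3, which encodes an oxygen-sensing hydroxylase, rose by 2.67, while the peptide hormone gene Adm fell by 1.36, the glucose transporter gene Slc2a1 fell by 0.93 and Ndrg1 fell by 0.88. Hif1a itself fell by 0.22, and with median-centred arrays its change of -0.10 was not called.

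**Figure D3:**
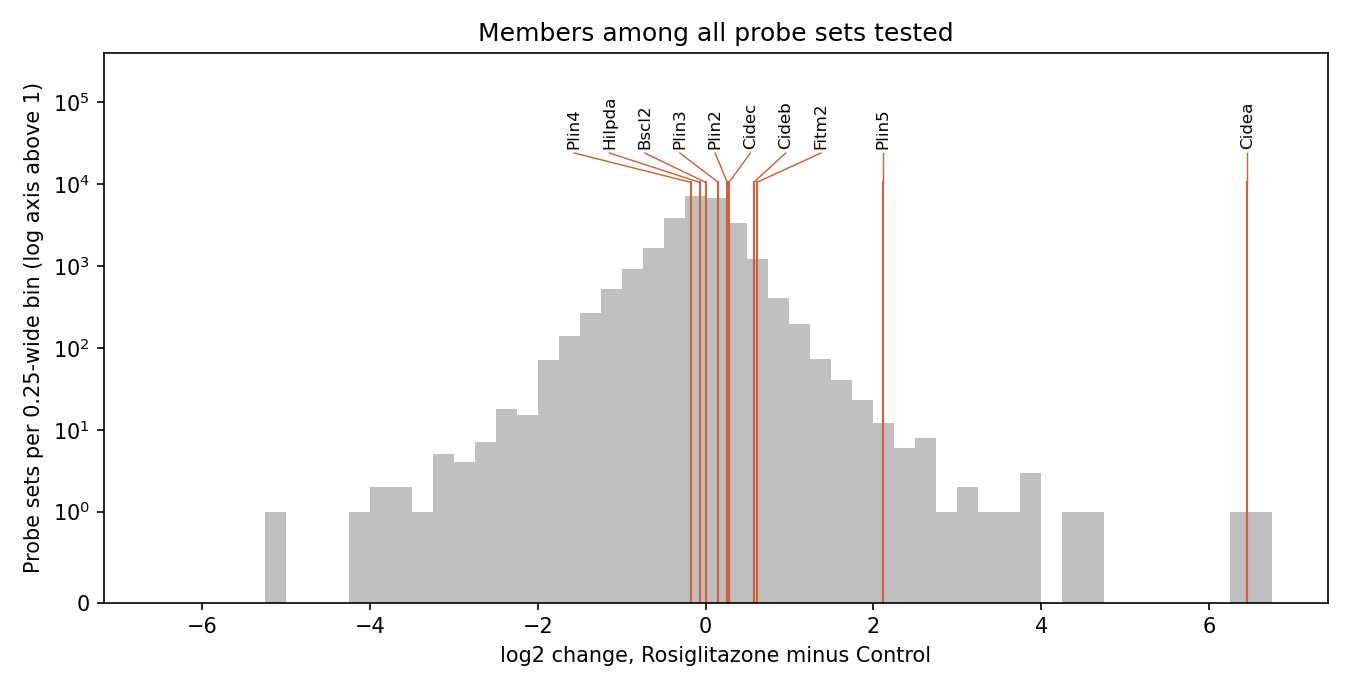
Number of the 27022 tested probe sets in each bin of log2 change, 0.25 wide, Rosiglitazone minus Control (vertical axis logarithmic above 1), with the brightest probe set of each member as a line. Cidea at 6.46 and Plin5 at 2.11 lie in the upper tail, and the other 8 members lie between -0.17 and 0.61.

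Regulators known to act on these genes also divided. Of 16 genes, 6 were higher and 9 lower, with a median log2 change of -0.21. After median centring 6 were higher and 6 lower, with a median of -0.08. Over all genes tested, 23% were higher and 35.3% lower as deposited, and 34.5% and 24.9% after median centring. Ppara, which encodes the receptor that drives fatty acid burning genes and is a known activator of Plin5, rose by 1.83, from 680.8 to 2419. The coactivator gene Ppargc1a rose by 1.18. Pparg, the receptor gene of the drug itself, fell by 0.36, its partner gene Rxra fell by 0.80 and Ppard fell by 0.91. The sign of these 5 changes was the same after quantile normalization and after median centring.

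Genes of droplet breakdown and of the remaining droplet machinery moved in mixed directions. Across all genes tested, 23% were higher and 35.3% lower as deposited. Those shares were 34.5% and 24.9% after median centring, and 29.9% and 28.7% after quantile normalization. Among 8 genes of droplet lipases and their cofactors, 5 were higher and 2 lower (median 0.21). Ces1d, a carboxylesterase gene of the droplet, rose by 1.05, Ces1f by 0.52 and the monoglyceride lipase gene Mgll by 0.36, while Pnpla3 fell by 0.77. Pnpla2, which encodes ATGL, the lipase that perilipins and Hilpda restrain, changed by -0.01 and was not called (SE 0.03, adjusted p = 0.791 by limma). It was 0.11 after median centring and -0.11 after quantile normalization, called in both, and 0.26 and called with the mean of its probe sets. In the list of droplet formation, 9 of 23 genes were higher, 5 lower and 9 not called (median 0.05), while 15 were higher and 3 lower after median centring and 13 higher and 5 lower after quantile normalization. Clstn3, whose locus also gives a droplet protein of multilocular fat cells, rose by 1.51, though which of its transcripts the probe set reads is not known here, and the acyltransferase gene Gpat4 by 0.47. Dgat2, which makes triglyceride at the droplet, fell by 0.60 and Vmp1 fell by 0.49. Among 22 other droplet surface genes, 5 were higher and 9 lower (median -0.11) as deposited, and 8 higher and 6 lower (median 0.02) after median centring. Among them were the methyltransferase-like gene Mettl7a1 at -1.38, Mettl7b at -0.84, Cyb5r3 at -0.79 and the retinal reductase gene Dhrs3 at 0.63. Mettl7b was dim, with a mean of 36.5 in Control and of 20.1 with the drug, under the filter on low values, so it was tested because of its Control arrays, and its call was lost without Control replicate 1 (log2 change -0.65).

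**Figure D4:**
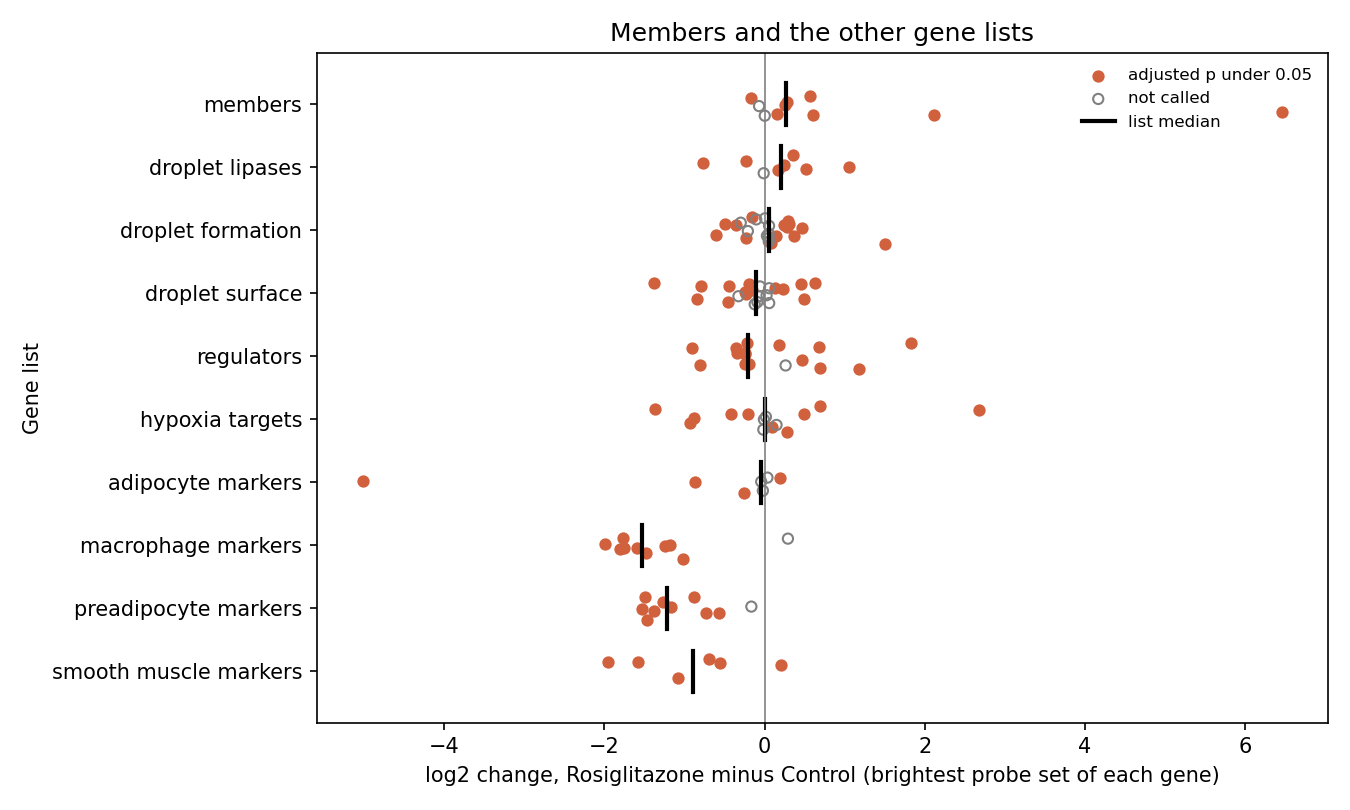
Log2 change (Rosiglitazone minus Control) of each tested gene by its brightest probe set, by list, filled where the adjusted p was under 0.05, with the list median as a bar. The members and the lists of droplet genes and regulators spread to both sides of 0, while nearly all macrophage and preadipocyte markers lie below it.

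Markers of other cells fell in the same arrays, where 35.3% of all genes tested were lower and 23% higher. Macrophage markers were lower in 9 of 10 tested genes and higher in 0 (median -1.53), and the sum of the 12 listed markers ranged from 11189 to 12193 in Control and from 3726 to 4031 with rosiglitazone, with Cd163 under the floor on all arrays. Preadipocyte and fibroblast markers were lower in 9 of 10 and higher in 0 (median -1.22), with a sum of 39866 to 40677 against 21219 to 22276 and Dpp4 under the floor on all arrays. Smooth muscle markers were lower in 5 of 6 and higher in 1, Des, which was not called once Control replicate 1, Control replicate 2, Rosiglitazone replicate 1 or Rosiglitazone replicate 2 was left out, with a sum of 7988 to 8426 against 4607 to 4733. Of 8 endothelial markers 1 was bright enough to test and fell, with Emcn and Tie1 under the floor on all arrays, and of 7 leukocyte markers 3 were tested and 1 fell, with Cd3e, Cd4 and Cd79a under the floor. The summed level was 217.1 to 235.3 against 140.6 to 165.7 for the endothelial list and 465.8 to 472.4 against 299.4 to 323.9 for the leukocyte list. Of 7 fat cell markers 1 was higher, 3 lower and 3 not called, and after median centring 4 were higher and 3 lower. Their sum was 71870 to 73213 in Control and 67221 to 67976 with the drug, and 6 of the 7, such as Adipoq and Fabp4, were bright in both groups. Lep, which encodes the hormone leptin, was the exception, at 644.1, 637.5 and 712.2 in Control and 10.8, 21.3 and 25.3 with rosiglitazone. Its log2 change was -5.02 (adjusted p = 1.51e-13 by limma), the lowest of the 27022 probe sets, with 1 treated array under the floor of 16. Retn, which encodes the fat cell hormone resistin, fell by 0.87, from a mean of 11225 to 6139. Lep and the smooth muscle marker Cnn1 passed the filter on low values because of their Control arrays. The part of these markers, and of the cells they stand for, in the changes of the droplet genes was not tested. Centring the arrays on their median moved the median change of all probe sets by 0.12, and the members whose changes were smaller than that, Hilpda and Bscl2 by its brighter set, took both signs across the scalings.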

How the data were processed

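Per the labels' protocols, RNA of the 6 samples was extracted with TRIzol and columns, labelled with biotin as cRNA and read on Affymetrix mouse 430 2.0 arrays. Samples were grouped by title, since the labels' treatment protocol text names rosiglitazone for all 6. The authors deposited linear intensity values for 45101 probe sets. Their summarisation and normalization are not given in the sources used here. This bears on every change near 0. Values under 16 were set to 16 and log2 was taken. The 64 control probe sets and the 40% with the lowest mean (up to 27.3) were left out, which left 27022. Names came from the platform annotation: 34945 probe sets had 1 symbol, 932 several and 9160 none. Promoter sequences are from RefSeq (GRCm38.p6).

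The test was limma's (version 3.58.1, R 4.3.3: lmFit and eBayes with trended variance, no covariate, two-sided), and p-values were adjusted by Benjamini and Hochberg's method over the 27022 probe sets. The code was tested on simulated data. Each gene was read by its brightest probe set. Pairs of members were compared with exact permutation tests of within-array differences. Lists are given by counts and medians. The text names all members, the 4 largest called changes of each list of droplet genes, regulators and hypoxia targets, and Pnpla2, Pparg, Ppargc1a and Hif1a. It also names, for members with a called change of at least 1 on the log2 scale, the 3 genes nearest in profile. Lep, Retn, Cnn1 and the promoters of Plin4 and Plin2 were added after the values were seen. Also outside this naming rule were Des, Adipoq, Fabp4, the markers named as under the floor and the genes named as overlapping a member. Members and lists were chosen with earlier results of these data known. The 19 alternatives covered scaling, floor, filter, variance model, array weights, replicate block, threshold, the rule for probe sets and leaving out each array.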

Additional observations from a re-analysis of the deposited data

How the results depend on the processing

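The changes of Cidea, Cidec, Plin2, Plin5, Fitm2 and the dimmer Bscl2 probe set kept their direction and stayed called in every alternative that could be run for them, 19 each, or 17 for the dimmer sets of Plin5 and Bscl2, which have no value when a gene is read as 1 profile. Same-numbered arrays of the 2 groups did not deviate together (correlations of -0.04, -0.02 and 0.02). With 3 arrays per group, such correlations cannot exclude a pairing. With the replicate number as a block (replicate block), Cideb (adjusted p = 0.0508 by limma) was lost, which left 6 members higher and 1 lower, while the number of probe sets called was 13777 against 14015 without it. In the same fit 0 smooth muscle markers were higher. That count was also 0 with a floor of 64 (3 lower), without a filter, with the lowest 20% left out, without a variance trend and at an adjusted p under 0.01.

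Quantile normalization gave 2 members lower, changes of -0.092 for the brighter Bscl2 set and 0.033 for Hilpda, and -0.023 for Plin2 minus Plin3. Median centring gave 8706 probe sets higher, 0 members and 1 member probe set lower, 15 higher and 3 lower in droplet formation, 8 higher on the droplet surface and 4 higher among fat cell markers. Under it Hilpda was 0.054 and Pnpla2 0.11. Without a filter, 0 members and 1 member probe set were lower, Plin4 (adjusted p = 0.0621 by limma) and Plin3 having lost their calls. With genes as the unit, 7692 were called by the brightest probe set (3057 higher, 4635 lower) and 7191 by the mean of probe sets (2912 higher, 4279 lower). By that mean 2 members were lower, Bscl2 being at -0.12, 2 fat cell markers were higher and Pnpla2 was at 0.26. Cideb has no value with a floor of 64, being under it on all arrays.

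Leaving out each array in turn gave 12380 to 13550 called probe sets, 6 to 7 members higher and 1 to 1 lower, 0 to 1 smooth muscle markers higher and 0 to 1 leukocyte markers higher. The brighter Bscl2 set then ranged from -0.012 to 0.016, Hilpda from -0.12 to 0.012 and the Pnpla2 log2 change from -0.031 to 0.011. The 3 arrays in each group limit the precision, most for the dim Cideb.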
